A study of Mus musculus with 6 samples.

Results

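The cytoplasmic ribosome of the mouse is built from ribosomal RNA and a large set of ribosomal proteins, and the genes of those proteins are the subject here. They were taken as every gene with a probe set annotated to a single symbol that starts with Rpl or Rps and a digit, or to Rplp0, Rplp1, Rplp2 or Rpsa, without the Rps6k kinases and the symbols marked as pseudogenes. The rule found 48 genes, 26 of the large and 22 of the small subunit, among 12393 genes with a probe set of 1 symbol. These 48 genes had 100 probe sets, and the probe set with the highest mean signal stood for each gene. Another 102 ribosomal probe sets carry several symbols, pseudogenes among them, and were used only for comparison. Rplp1 and Rpl5, for example, are on the array only through such probe sets and are not members.

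Bone marrow-derived macrophages of C57BL/6J mice were studied in 2 genotypes, knockout for Nfkbib, the gene of the NF-kB inhibitor IκBβ, and wild type. In the knockout and the wild type alike, non-adherent marrow cells had grown for 7 days in medium conditioned by L929 cells, which supplies macrophage colony-stimulating factor, and were then given LPS, the bacterial lipopolysaccharide that activates Toll-like receptor signalling, at 1 µg/ml for 0 h, 1 h or 5 h. Each of the 6 combinations of genotype and time is 1 Affymetrix Mouse Genome 430A 2.0 array of biotin-labelled RNA. No combination has a replicate, the allele is not named in the labels, and they do not say whether the arrays of a genotype share an animal.

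Ribosomal protein mRNAs are among the most abundant in growing cells. Most begin with a 5′ terminal oligopyrimidine tract, a C followed by a stretch of C and T, through which growth signals and mTOR control how much of the mRNA is translated. Some ribosomal proteins also act away from the ribosome: in human monocytes RPL13A leaves it after interferon-gamma and silences a group of inflammatory mRNAs, and RPS3 has been described as a partner of NF-kB in human cells. Macrophages that respond to LPS turn part of their transcription and translation over to defence genes, and the arrays measure mRNA only, not translation.

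Nfkbib read 30.5, 136 and 56.1 on the knockout arrays at 0 h, 1 h and 5 h, against 477, 3330 and 5007 on the wild-type arrays. Xist read 5634, 4189 and 2149 in knockout, against 52.1, 80.4 and 62.1 in wild type, while the Y-linked Eif2s3y read 3.27, 0.896 and 10.7 in knockout, against 799, 860 and 570 in wild type. The knockout RNA was thus female and the wild-type RNA male, and genotype and sex cannot be told apart. Macrophage markers summed to 87734, 97113 and 99110 in knockout at the 3 times and to 96189, 96536 and 104211 in wild type. In the fit described below, 3 of the 10 tested were higher at 5 h (Cd14, Msr1 and Spi1) and 2 lower (Cd68 and Itgam). The shares of all genes were 19.5% and 54%. The sum therefore does not measure the number of macrophages. The actin 3′ to 5′ ratio was 0.994 to 1.12 on the 6 arrays.

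The ribosomal protein genes were among the brightest on the arrays and held a smaller share of the signal at 5 h of LPS than at 0 h. Their 48 probe sets held 2.95%, 2.75% and 2.19% of all summed signal in knockout cells at 0 h, 1 h and 5 h. In wild-type cells they held 3.18%, 2.86% and 2.38%. The share was lowest at 5 h in both genotypes and lower in knockout than in wild type at every time. A signal here is the MAS5 signal, a linear intensity with no unit, scaled to a common trimmed mean on each array.

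The median signal of the 48 genes was 11753, 10663 and 8207 in knockout and 13154, 11560 and 8920 in wild type. As a percentile of all probe sets on the same array, which no rescaling of an array changes, the median gene stood at 99.18, 98.95 and 97.97 in knockout and at 99.22, 99.05 and 98.18 in wild type. Counting the probe sets of several symbols as well, ribosomal probe sets took 41, 33 and 9 of the 100 brightest places in knockout cells, and 44, 34 and 12 in wild-type cells. The brightness of a probe set also depends on its probes, so signals of different genes are not compared as mRNA levels.

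**Figure D1:**
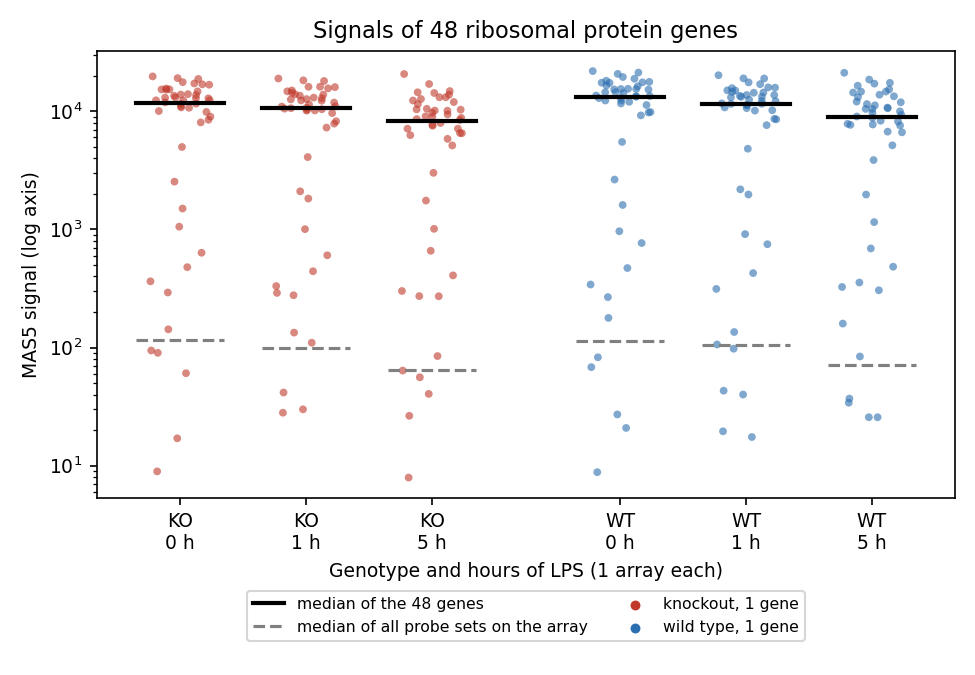
MAS5 signal (log axis) of each of the 48 ribosomal protein genes on the 6 arrays, by genotype (KO, knockout; WT, wild type) and hours of LPS; black lines mark the median of the 48 genes and dashed lines the median of all probe sets on the array. The black lines run through 11753, 10663 and 8207 in knockout and 13154, 11560 and 8920 in wild type, in order of time.

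A minority of the genes are represented by dim probe sets, which limits what can be said of them. Of the 48 genes, 34 had a mean signal of at least 5000. The 4 with the lowest mean were Rpl3l, Rpl39l, Rps4l and Rpl12. Rpl3l, a muscle paralogue of Rpl3, read 8.96, 28.1 and 7.95 in knockout and 8.82, 19.6 and 34.1 in wild type. Rpl39l, a paralogue of Rpl39 best known from testis, read 17.1, 30.02 and 40.6 in knockout and 27.2, 40.1 and 25.8 in wild type. Both stayed under the array medians, which were 65.2 to 117. Rpl12, a protein of the stalk base, read 90.3, 41.7 and 26.5 in knockout and 82.8, 43.2 and 37.1 in wild type. For Rpl12 a brighter probe set of several symbols exists, as it does for Rpl13a, Rpl14, Rpl27a, Rpl37, Rpl39, Rps2, Rps6, Rps25 and Rps27. The signals of these 10 genes may therefore not speak for their main transcript.

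Changes were fitted with limma over all 7508 genes that rose above the array median on at least 1 array, with genotype and time as additive terms and signals under 18.2 raised to that floor. Genes with a p under 0.05 after Benjamini-Hochberg adjustment over those 7508 genes were called. Of the 48 genes, 45 passed the filter, and Rpl12, Rpl39l and Rpl3l did not. The fit has 2 residual degrees of freedom, to which limma adds a prior variance shared by all genes, with 2.18 degrees of freedom. Its p-values rest on that prior and on how alike the 2 genotypes changed, not on the spread between animals. The median residual SD was 0.049 for the 45 genes and 0.14 for all genes tested, so the prior weighs heavily in the SE of the 45.

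After 5 h of LPS, 30 of the 45 ribosomal protein genes fell (66.7%), 0 rose and the other 15 missed the threshold, at the deposited scale. The background was 54% of all 7508 genes called lower and 19.5% called higher, so most of the expressed genes moved the same way. At an unadjusted limma p under 0.05 there were 33 of the 45, beside 75.7% of all genes in either direction. The median change of the 45 genes was −0.46 on the log2 scale, beside −0.57 for all genes tested. After centring each array on the median of its tested genes, that of the 45 genes was 0.17, beside 0.06 for all genes tested. Then 2 of the 45 were called lower and 11 higher, beside 2356 and 2614 of all 7508 genes. How the 45 genes stand to all genes also turned with the setting: the medians were −0.46 and −0.22 after quantile normalization, and −0.45 for all 48 members and −0.26 for all genes with no filter on dim genes. The SD over genes of the 5 h change was 0.30 for the ribosomal protein genes and 1.54 for all genes. Leaving out the knockout 0 h array reduced the 30 calls to 5 (Rpl14, Rpsa, Rps2, Rpl22 and Rps15), leaving out the wild-type 0 h array to 7 and leaving out the knockout 5 h array to 19.

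The median within each genotype was −0.47 in knockout and −0.42 in wild type, values of 1 array against 1 with no test. Both 5 h arrays lay below both 0 h arrays for 39 of the 45 genes, beside 61.3% of all genes tested, and above them for 0, beside 25.6%. By percentile rank on the array, 40 of the 45 genes stood lower on both 5 h arrays and 3 stood higher, beside 50.7% and 34.5% of all genes tested. Among the 34 ribosomal protein genes of signal at least 5000 the median 5 h change was −0.42 in knockout and −0.38 in wild type. The 363 other genes as bright had medians of 0.08 and 0.05. Below 0 were 97.1% and 100% of the 34 genes, beside 46.8% and 47.9% of the 363. The difference was not tested.

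Rpl14, a large-subunit protein, had the most negative 5 h change, on a dim probe set. It read 143, 134 and 56.1 in knockout and 178, 135 and 84.1 in wild type. Both 5 h arrays were the lowest. The change was −1.22 (SE 0.17, limma adjusted p = 0.0040), and it was among the 2 genes also called lower after median centring (−0.59). Quantile normalization ended the call (−0.45, limma adjusted p = 0.083).

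The other was Rpsa, the small-subunit protein also known as the laminin receptor, which had the steepest fall among the bright probe sets. Its signals were 11590.2, 10405 and 5844 in knockout and 13314, 11576 and 6721 in wild type. The 2 genotypes moved alike, with 5 h minus 0 h at −0.99 in each. The fitted change was −0.99 (SE 0.10, adjusted p = 0.0017 in limma), and −0.36 after median centring.

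Rps2, which lines the mRNA entry channel, read 12379, 10959 and 7125 in knockout, against 13587, 11660.0 and 7830.1 in wild type. It fell by 0.80 (SE 0.10, limma adjusted p = 0.0029). Rpl22, at the rim of the exit tunnel and required for T cell development in mice, read 8050 at 0 h, 7271 at 1 h and 5139.9 at 5 h in knockout, against 9228, 7633 and 5152 in wild type. It fell by 0.74 (SE 0.11, limma adjusted p = 0.0047). Rps25, which internal ribosome entry sites of some viruses need in yeast and human cells, was measured on a dim probe set at 479, 443 and 272 in knockout and 471, 427 and 306 in wild type. Its fall was 0.72, with the 5 h value lowest in each genotype (change −0.72, SE 0.12, limma adjusted p = 0.0059). The Rps25 call was lost with quantile normalization (−0.22), with median centring (−0.09) and without the knockout 0 h array.

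At the other end, 5 genes had the most positive 5 h values, and none of them passed. Rps29, a small zinc-binding protein with the highest mean signal of the set, read 19723, 18922 and 20671 in knockout and 21889, 20196 and 21179.9 in wild type. Its change was 0.01 (SE 0.10, limma adjusted p = 0.94). Rps24, a gene mutated in some families with Diamond-Blackfan anaemia, read 14729, 13853 and 13809.6 in knockout and 16279, 14421 and 15317 in wild type, a change of −0.09 (SE 0.10, limma adjusted p = 0.46). Neither gene's 5 h arrays stood clear of its 0 h arrays by more than the genotypes differed.

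The next highest mean signals were those of Rps28, Rpl38 and Rps10, and none of these passed at 5 h. Rps28, at the mRNA exit side, read 19082 at 0 h, 18271 at 1 h and 17014 at 5 h in knockout, against 20719.6, 18994 and 18549 in wild type. Rpl38, which in mouse embryos is needed for translation of certain Hox mRNAs, read 18778, 18049 and 14821 in knockout and 21254, 18947 and 17398 in wild type, a change of −0.32 (SE 0.11, limma adjusted p = 0.054). Rps10 read 17634, 16108.5 and 14285.5 in knockout and 19501, 17551.5 and 17136 in wild type, a change of −0.25 (SE 0.11, limma adjusted p = 0.099). In all 3 genes both 5 h arrays were below both 0 h arrays. After median centring Rps29 (0.64), Rps24 (0.54), Rps28 (0.47) and Rps10 (0.38) were called higher at 5 h in limma.

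The other 3 of the 5 lie on dim probe sets, and in Rps27 and Rpl39 the genotypes moved in opposite directions. Rps4l, an autosomal paralogue of the X-linked Rps4x, had a change of 0.39 (SE 0.29), with 0.48 in knockout and 0.30 in wild type. Rps27, a zinc-finger protein of the small subunit, read 94.5, 290.4 and 63.9 in knockout and 68.3, 106 and 159.7 in wild type. Its change was 0.33 (SE 0.69), since its 5 h signal was below 0 h in knockout and above it in wild type. Rpl39, the smallest of the exit tunnel proteins, read 293, 277 and 273 in knockout and 268, 97.8 and 355 in wild type, a change of 0.15 (SE 0.49).

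**Figure D2:**
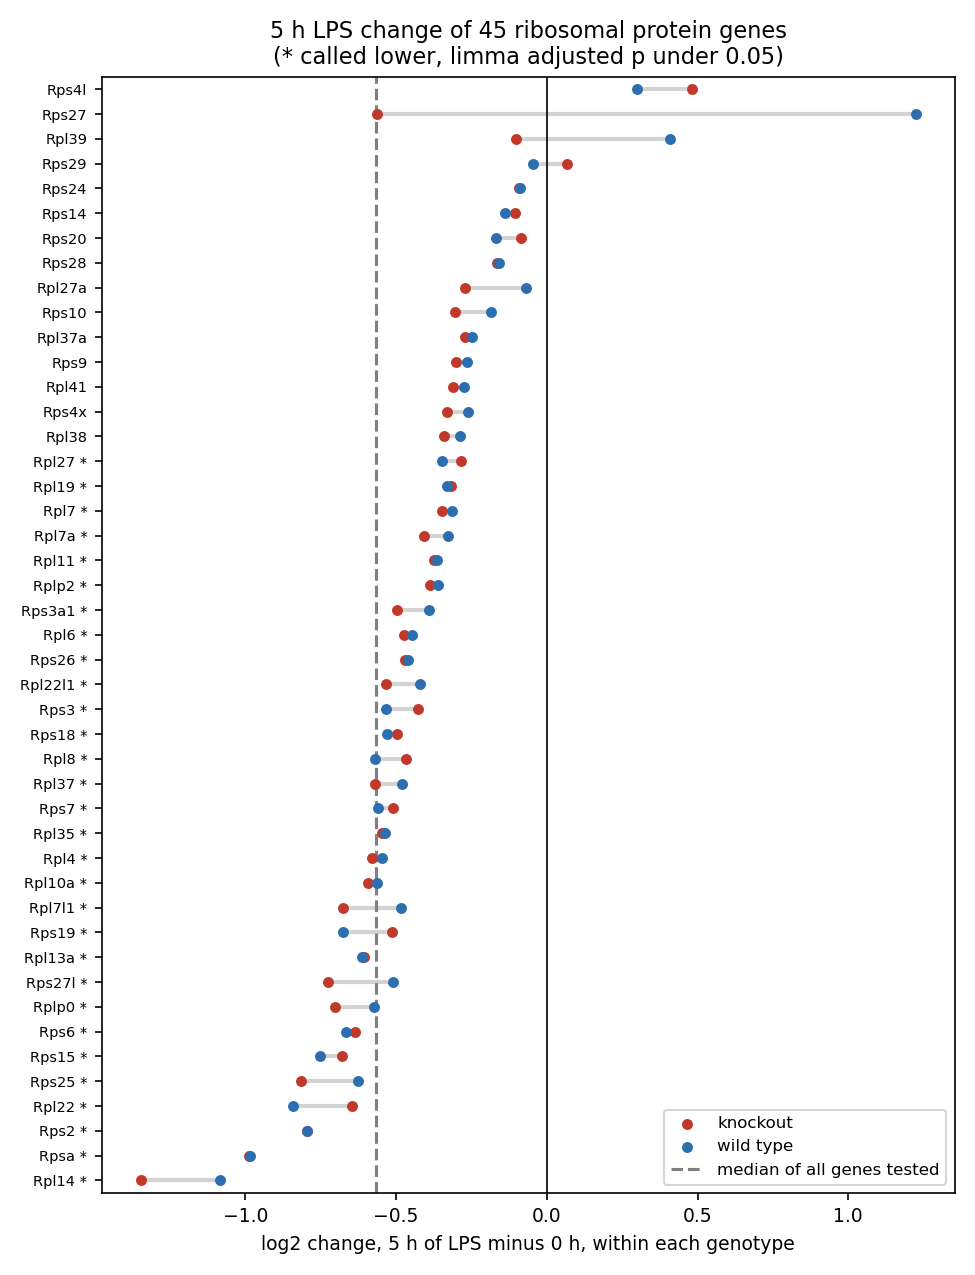
Log2 change from 0 h to 5 h of LPS within knockout (red) and within wild type (blue) for the 45 ribosomal protein genes tested, 1 array against 1, sorted by the fitted change; an asterisk marks genes called lower and the dashed line is the median of all genes tested, −0.57. The 2 genotypes lie close for all but a few dim genes such as Rps27 and Rpl39, from Rpl14 at −1.22 to Rps4l at 0.39. Centring each array on the median of its tested genes moves the median of the 45 genes from −0.46 to 0.17.

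By place in the ribosome, 18 of 23 large-subunit genes tested and 12 of 22 small-subunit genes tested were called lower at 5 h, beside 54% of all genes, with medians of −0.46 each, and the difference between the subunits was not tested. The stalk of the large subunit, where elongation factors dock, was measured through Rplp0 and Rplp2, and both fell. Rplp0, the anchor of the stalk, read 16779, 16018 and 10318 in knockout and 17739.5, 15850.4 and 11918 in wild type, a change of −0.64 (SE 0.11, limma adjusted p = 0.0081). Rplp2 read 17196, 16139.5 and 13149 in knockout and 18856, 16956 and 14687 in wild type, a change of −0.37 (SE 0.10, limma adjusted p = 0.029). Rpl11, which with Rpl5 carries 5S RNA and can bind Mdm2, fell by 0.37 (SE 0.10, limma adjusted p = 0.030). It read 8475, 7864 and 6540.5 in knockout and 9759.6, 8627 and 7589.5 in wild type.

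Of 5 exit tunnel proteins tested, 4 fell: Rpl4 (−0.56), Rpl19 (−0.33), Rpl22 and Rpl35 (−0.54). Rpl39 did not pass. The share of all genes called lower, 54%, is the background of this count and of those that follow. All 3 genes tested at the mRNA entry and decoding side fell, Rps2, Rps3 and Rps15 (−0.72). At the mRNA exit side 1 of 3 fell, Rps26 at −0.47, while Rps14 (−0.12) and Rps28 (−0.16) did not pass. These groups hold a few genes each, and the difference between them was not tested.

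The 3 members with described roles in inflammatory translation or transcription all fell at 5 h, beside 54% of all genes. Rpl13a, the GAIT complex member in human monocytes, read 12868, 11849.9 and 8455 in knockout and 15268, 13721 and 9984 in wild type. Its change was −0.61 (SE 0.10, limma adjusted p = 0.0063). Rps3, a decoding-side protein, read 10703, 10168 and 7959.9 in knockout and 12032, 10134 and 8312 in wild type, a change of −0.48 (SE 0.11, limma adjusted p = 0.017). Rps6, the substrate of the S6 kinases that lie downstream of mTOR, was measured on a dim probe set at 635, 604 and 408 in knockout and 767, 749.8 and 484 in wild type. The change of Rps6 was −0.65 (SE 0.10, limma adjusted p = 0.0053), and quantile normalization (−0.28, limma adjusted p = 0.076) ended its call. After median centring the changes were −0.02 for Rps6, 0.02 for Rpl13a and 0.15 for Rps3, none called.

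Of the 4 paralogues of standard subunit proteins that were bright enough to test, 3 fell at 5 h, with limma adjusted p of 0.0088 to 0.015, beside 54% of all genes. Rps27l, a paralogue of Rps27 that p53 induces in human cells, read 4986, 4096 and 3013 in knockout and 5499.6, 4819 and 3864 in wild type, and fell by 0.62 (SE 0.11). Rpl22l1 read 2538, 2102 and 1755 in knockout and 2644, 2184 and 1973 in wild type, and fell by 0.48 (SE 0.10). Rpl7l1, a paralogue of Rpl7, read 1055, 1006 and 659.6 in knockout and 965, 913 and 691 in wild type, and fell by 0.58 (SE 0.11). Median centring put these 3 at 0.01, 0.15 and 0.05.

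Among the bright genes, those with the highest signals had the smallest median change. The 12 genes with a mean of 14000 or more had a median 5 h change of −0.28, with 4 called lower. The 14 genes between 10000 and 14000 had −0.49, with 11 called, and the 8 between 5000 and 10000 had −0.56, with all 8 called. Over the 34 genes of at least 5000, Pearson's r between the log2 of the mean signal and the 5 h change was 0.64 and Spearman's rho 0.62. The mean signal includes the 5 h arrays, so a gene that fell more has a lower mean, and part of this relation is built in. These 34 points share the same 6 arrays, and the values are a description.

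Different probe sets of 1 gene gave different sizes of change. For 19 genes with at least 2 probe sets of mean signal 500 or more, the dimmest probe set had the more negative change in 13 and the less negative in 6. The mean signal includes the 5 h arrays, so a steeper fall itself makes a probe set dimmer. The range over the probe sets of a gene had a median of 0.20 on the log2 scale and passed 0.5 in 5 genes. The dimmest of 4 such Rpl13a probe sets read 1959.7, 1470.5 and 361 in knockout and 1827, 1708 and 448 in wild type, a change of −2.23 beside −0.61 on the brightest. The second Rpl22 probe set read 966, 894 and 96.3 in knockout and 1039, 895 and 125 in wild type, a change of −3.19 beside −0.74.

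The second probe set of Rps9, a small-subunit protein involved in decoding accuracy in yeast, went the other way. It read 4393, 3717 and 6311 in knockout and 5162, 4912 and 6596 in wild type, a change of 0.44 beside −0.28 on the brightest. In Rps24 and Rps10 a dimmer probe set split the genotypes. The fourth Rps24 probe set read 8896, 7155 and 10493 in knockout, against 7873, 9306 and 2605 in wild type. The size of a change, and for Rps9 and Rps29 its sign, thus depends on the probe set: the dimmest of 3 Rps29 probe sets changed by −0.24, beside 0.01 on the brightest. The 80 ribosomal probe sets of several symbols with signal of at least 500 had a median 5 h change of −0.43, and 78 of them were below 0.

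**Figure D3:**
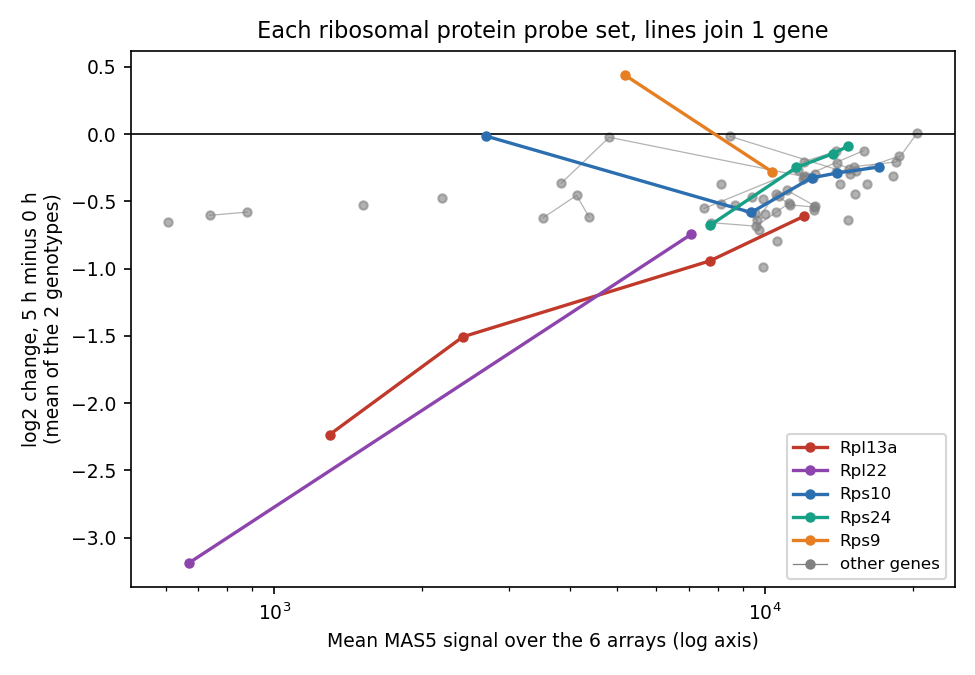
Mean MAS5 signal over the 6 arrays (log axis) against the log2 change at 5 h of LPS (mean of both genotypes) for ribosomal protein probe sets of signal at least 500; lines join probe sets of 1 gene and colours mark the 5 genes whose probe sets range over more than 0.5. Dimmer probe sets of Rpl13a and Rpl22 reach −2.23 and −3.19, while the second Rps9 probe set stands at 0.44.

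At 1 h of LPS no ribosomal protein gene passed the test. Limma called 0 of the 45 genes, beside 5.91% of all genes called lower and 5.42% called higher, and 1 had an unadjusted limma p under 0.05, beside 32.9% of all genes. The unadjusted count was 16 of 45 with a prior that follows the mean signal, and 16 of 48 with no filter. The share of all genes under those settings is not given. The median was −0.13, beside −0.18 for all genes tested, and 0.0064 after median centring. The lowest adjusted p was 0.15, of Rpl37, a large-subunit zinc-binding protein. It read 1503, 1825 and 1012 in knockout and 1611, 1974 and 1154 in wild type, highest at 1 h and lowest at 5 h in each genotype. Its 1 h change was 0.29 (SE 0.10) and its 5 h change −0.53 (SE 0.10, limma adjusted p = 0.011), or 0.10 after median centring.

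The remaining extremes at 1 h were Rpl39 (−0.76), Rpl22l1 (−0.27) and Rpl14 (−0.24) on the negative side, and Rps27 (1.13) and Rps4l (0.33) on the positive side. None passed. Both 1 h arrays lay below both 0 h arrays for 26 of the 45 genes (57.8%), beside 51.2% of all genes tested.

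Set against 1 h in place of 0 h, 21 of the 45 genes were lower at 5 h and 0 were higher, beside 45.5% and 18.5% of all genes. An unadjusted limma p under 0.05 was found for 23 of them, beside 68.2% of all genes. The median was −0.32, or 0.17 after median centring. Leaving out single arrays brought the 21 calls to between 2 and 11, with the lowest count, 2, without the knockout 1 h array. The lowest adjusted p were those of Rpsa (−0.81, limma adjusted p = 0.0038) and Rpl37 (−0.81, limma adjusted p = 0.0039).

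Between the genotypes, the ribosomal protein genes were slightly dimmer in knockout than in wild-type cells, and no gene passed the test. Knockout minus wild type had a median of −0.12 over the 45 genes, beside −0.03 for all genes tested, and −0.03 for the 45 genes after quantile normalization. No member was called, beside 0.0133% of all genes called lower and 0% called higher. At an unadjusted limma p under 0.05 there were 3 of 45, beside 8.38% of all genes in either direction. They were Rpl13a, Rps6 and Rps4l. This unadjusted count depends on the prior and the filter. It was 24 of 45 with a prior that follows the mean signal, and 22 of 48 with no filter. The share of all genes under those settings is not given. Rps4l entered the test only through knockout arrays, so its p is no evidence of a difference. The lowest adjusted p of a gene other than Rps4l, which is treated below, was 0.59.

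Signals were lower in knockout at all 3 times for 35 of the 45 genes (77.8%), beside 20.2% of all genes tested. At the single times, 39 of the 45 were lower in knockout at 0 h, 35 at 1 h and 44 at 5 h, beside 48.8%, 53.1% and 57.6% of all genes tested. Signals were higher at all 3 times for 1 gene, Rps4l, beside 13.9% of all genes. The 34 genes of signal at least 5000 had medians of −0.15, −0.07 and −0.16 at 0 h, 1 h and 5 h, and 34, 30 and 34 of them were below 0. The 363 other genes with a mean signal of at least 5000 had medians of −0.07, −0.01 and −0.09. Every such value rests on 1 array against 1, and genes on the same pair of arrays share that pair's scaling.

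The 4 genes lower in knockout at all 3 times whose smallest difference over the times was widest were Rps6, Rpl13a, Rpsa and Rps27l, whose signals are given above. Their fitted differences were −0.28 (SE 0.08), −0.23 (SE 0.08), −0.19 (SE 0.08) and −0.24 (SE 0.09), none of which passed. Rps4l ran against the rest. It read 60.7, 109.9 and 84.8 in knockout and 20.9, 17.5 and 25.7 in wild type. Every knockout array was above every wild-type array, at signals near or below the array medians. Rps4l passed the filter on low signals only through the knockout 1 h and 5 h arrays, and its wild-type signals lie at or near the floor of 18.2, so no size or test of its difference is given as a result. Its X-linked counterpart Rps4x read 13048, 12603.5 and 10374 in knockout, against 14483.5, 13128 and 12082 in wild type, a difference of −0.14 (SE 0.09).

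**Figure D4:**
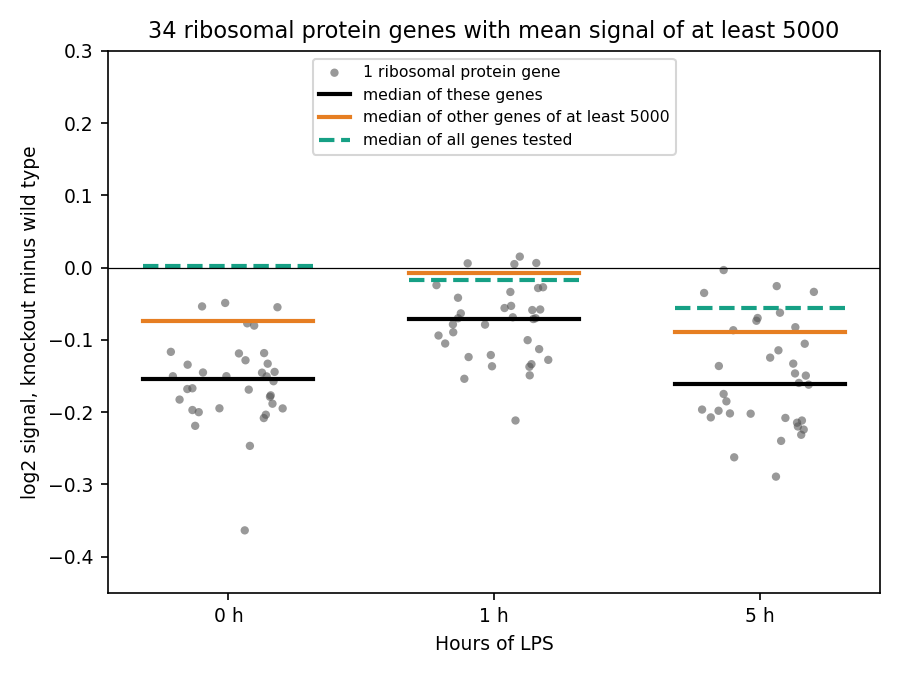
Log2 signal in knockout minus wild type at 0 h, 1 h and 5 h of LPS for the 34 ribosomal protein genes of mean signal at least 5000, 1 array against 1. Black lines mark their median, orange lines that of the 363 other genes of at least 5000 and dashed lines that of all genes tested. The black lines lie at −0.15, −0.07 and −0.16 and the orange lines at −0.07, −0.01 and −0.09; quantile normalization moves the fitted median of all 45 ribosomal protein genes from −0.12 to −0.03.

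The starts of the ribosomal protein genes were read from RefSeq promoter sequences of GRCm38.p6, which hold 42 of the 48 genes with 50 annotated starts. A tract was taken as a C followed by at least 7 letters that are C or T, on the coding strand, within 25 bases to either side of a start. It was found in 23 of the 42 genes (54.8%), beside 19.7% of the genes tested and 17.7% of all genes in the table. The following 30-base windows hold the tract, in capitals, in genes described above, from the most to the least negative 5 h change.
Rpl14, chr9:120571501-120571530, plus strand: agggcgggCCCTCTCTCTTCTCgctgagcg
Rps25, chr9:44407684-44407713, plus strand: ccaccgggCTTCCTTTTTTTCCgacatctt
Rps6, chr4:86857349-86857378, minus strand: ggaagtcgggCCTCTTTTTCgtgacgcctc
Rpl13a, chr7:45128722-45128751, minus strand: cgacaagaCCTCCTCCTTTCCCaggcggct
Rplp2, chr7:141447636-141447665, plus strand: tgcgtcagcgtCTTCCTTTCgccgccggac
Rps24, chr14:24490665-24490694, plus strand: cgcgctggggtCCTTCCTTgcgcgttgata

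The windows above were picked from the 22 genes tested that hold the tract. Of those 22, 15 were called lower, beside 54% of all genes, and Rps24 is among the others. Windows around the annotated starts of 3 genes without such a tract are shown for contrast, 2 of them among the steepest falls and Rps28 among the genes that did not pass.
Rpsa, chr9:120127751-120127780, plus strand: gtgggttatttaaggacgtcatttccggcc
Rps2, chr17:24720048-24720077, plus strand: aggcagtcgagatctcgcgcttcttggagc
Rps28, chr17:33824548-33824577, minus strand: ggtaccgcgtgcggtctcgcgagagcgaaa

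The 22 genes tested that hold the tract had a median 5 h change of −0.42 with 15 called lower, and the 17 genes tested without it had −0.53 with 13 called lower. The absence of the letters in these windows says nothing of where transcription starts in these cells.

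A second motif, CCGGAAG or its reverse complement CTTCCGG, the core that ETS-family factors bind, was found within 250 bases upstream of a start in 17 of the 42 genes (40.5%), beside 17.4% of the genes tested and 7.83% of all genes. It is shown, in capitals, for Rpsa and Rps6, of which Rps6 also holds the tract.
Rpsa, chr9:120127552-120127611, plus strand: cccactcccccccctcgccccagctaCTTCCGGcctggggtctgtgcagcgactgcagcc
Rps6, chr4:86857425-86857484, minus strand: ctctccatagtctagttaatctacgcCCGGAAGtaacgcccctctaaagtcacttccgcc

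Genes with and without the ETS motif had median 5 h changes of −0.49 and −0.48. The letters TATAAA between 40 and 16 bases upstream were found in 1 of the 42 genes, Rpl22l1 (2.38%), beside 1.58% of the genes tested.

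Fau, whose product carries the ribosomal protein eS30 and lies outside the rule, read 14006 at 0 h, 12656 at 1 h and 9969.8 at 5 h in knockout, against 14835, 12835 and 11579 in wild type, and fell by 0.42 at 5 h (SE 0.11, limma adjusted p = 0.026). Of 13 other genes known for 5′ terminal oligopyrimidine mRNAs, 7 fell at 5 h and 0 rose, while 6 missed the threshold, and the median change was −0.82. That share is close to the 54% of all genes called lower. The 3 steepest falls were those of Eif4b (−2.27) and Eef1d (−1.19), a translation initiation and an elongation factor, and Eif3f (−1.06). Eef1a1, the main elongation factor, changed by 0.05 and did not pass.

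Of 40 genes of ribosome biogenesis tested, 22 fell at 5 h and 6 rose, while 12 missed the threshold, and the median change was −0.67. These shares are close to those of all genes, 54% lower and 19.5% higher. The steepest falls were those of Imp3 (−3.29) and Wdr12 (−3.00), factors of small and large subunit assembly, and Taf1d (−1.86), a subunit of the RNA polymerase I selectivity factor. Wdr12 ended under the floor in wild type at 5 h, so its value there is a bound. The largest rises were those of Eif6 (1.49), which keeps new large subunits from joining early, Wdr43 (1.44) and Myc (1.03), which drives transcription of many ribosome genes. Myc read 51.4, 1469 and 152 in knockout and 76.5, 1016 and 107 in wild type, and at 1 h it was the 1 gene of the list called (4.28, SE 0.32, limma adjusted p = 0.0069). Myc was under the array median at 0 h in both genotypes and passed the filter only through LPS arrays, which favoured a rise.

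In RNA of a whole culture, fewer cells of a type and less RNA per cell cannot be told apart. Of 7 B cell markers on the array, 3 were bright enough to test and all 3 fell at 5 h. Beside this count and those below, 54% of all genes were called lower at 5 h and 19.5% higher. Cd79b passed the filter only through the wild-type 0 h array, which favoured a fall. The summed level of the 7 was 3935, 2873 and 459.8 in knockout and 3771, 2646 and 472 in wild type, most of it Ighm. The defining Cd79a, Ms4a1 and Pax5 stayed at 45.3 or less on every array. Of 7 T and NK cell markers, Cd28 was the 1 bright enough to test. It fell by 4.11 (limma), and the sum was 2836, 1871 and 319 in knockout and 1948, 1437 and 198 in wild type, with Cd3e, Cd3g and Cd3d at 41.1 or less. Of 12 neutrophil markers, 4 were tested, with S100a8 higher (3.15) and Mmp8 lower (−1.47) at 5 h. S100a8 passed the filter only through the 5 h arrays, which favoured a rise. The sum of the 12 was 3419, 3114 and 2935 in knockout and 2788, 2681 and 2038 in wild type. Of 10 fibroblast markers, 2 were tested, Pdgfrb and Dcn, and both were called higher at 5 h from dim signals. Each passed the filter only through a 5 h array, Pdgfrb in wild type and Dcn in knockout. The filter thus favoured a rise, and these calls are no evidence of one. The sum of the 10 was 213, 228 and 303 in knockout and 291, 319 and 440.2 in wild type. Of 6 erythroid markers, 2 were tested and Tfrc, which many dividing cells also express, fell by 1.64. The sum was 2839, 3389 and 996 in knockout and 3149.8, 3109 and 1265 in wild type. The part of these markers' changes in the ribosomal values was not tested.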

How the data were processed

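The deposited values are intensities on a linear scale, MAS5 signals per the submitters' processing notes, for 22690 probe sets on each of 6 arrays. Neither the version of MAS5 nor its scaling target is stated in the sources. The authors' values have a trimmed mean of 499.9 on every array. Of the probe sets, 20393 have 1 symbol in the platform annotation used here, 691 several and 1606 none. All 48 symbols matched RefSeq by gene ID. The unit of testing was log2 of the signal, with signals under the 25th percentile of all values (18.2) raised to it. Genes were kept if above the array median on at least 1 array and were fitted with limma 3.58.1 in R 4.3.3, genotype and time additive, all 6 arrays, prior degrees of freedom 2.18. The fit was tested on simulated data. Differences between single arrays have no test. The number of arrays limits the precision.

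The 26 named members follow a rule: the 5 most negative and 5 most positive changes at 5 h, 3 each way at 1 h, 4 each way between the genotypes where all 3 times had the same sign, the 4 brightest and 4 dimmest, the paralogues, and the stalk, 5S and macrophage translation lists. The probe sets, promoter windows and other members were picked after their values were seen. The members and lists were chosen with earlier results of these data known. Alternatives were quantile normalization, median centring, a floor at the 10th percentile, no filter, other choices of probe set, a prior that follows the mean signal, leaving out each array, and, chosen after seeing the data, centring on 9 spiked-in controls.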

Additional observations from a re-analysis of the deposited data

Results flagged for a closer look

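In 3 ribosomal protein genes an LPS change of at least 0.1 on the log2 scale ran in opposite directions in the genotypes, with 1 array a side, and the difference was not tested. Rpl39 at 5 h stood at −0.102 in knockout and 0.41 in wild type, and Rps27 at 5 h at −0.56 in knockout and 1.22 in wild type. Rps4l at 1 h stood at 0.86 in knockout and −0.20 in wild type, where the 1 h signal was under the floor. All 3 probe sets are dim.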

How the results depend on the processing

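No paired analysis was possible because each genotype and time has 1 array and the replicate number is only a name; the additive fit itself compares the times within a genotype. Median centring moved the median of the ribosomal protein genes to 0.0064 at 1 h, 0.17 at 5 h and 0.17 for 5 h against 1 h, and centring on the spiked-in controls moved it to −0.21, −0.79 and −0.57. With median centring 2 genes were called lower and 11 higher at 5 h, beside 2356 and 2614 of all 7508 genes. For 5 h against 1 h it called 0 lower and 9 higher, beside 2029 and 2500 of all genes. With quantile normalization 33 of the 45 were called lower at 5 h, beside 40.7% of all genes. Called higher were 2 at 5 h (Rpl27a and Rps4l) and 1 for 5 h against 1 h (Rpl27a), beside 1975 and 1857 of all genes. With probe sets of other suffixes preferred over _x_at and _s_at, Rps24 was the 1 gene called higher in each of these contrasts. There Rps24 rested on a dim probe set that read 48.1, 26.5 and 75.3 in knockout and 46.4, 33.5 and 84.2 in wild type. At 5 h against 0 h, the prior that follows the mean signal called 37 genes lower, beside 55.6% of all genes. For 5 h against 1 h, that prior called 32 genes lower, beside 47.7% of all genes. The spiked-in controls gave 34, beside 55.7%. The median for knockout against wild type was −0.034 with quantile normalization. Leaving out 1 array gave 5 to 23 genes lower at 5 h with medians of −0.49 to −0.42, and 2 to 11 lower and 0 to 1 higher for 5 h against 1 h with medians of −0.36 to −0.26; with 5 arrays the fit has fewer degrees of freedom. Median centring turned the 5 h sign of Rpl22l1 (0.15), Rpl37 (0.10), Rpl13a (0.020), Rps27l (0.011), Rpl7l1 (0.049), Rplp2 (0.26), Rpl11 (0.26), Rps3 (0.15), Rps24 (0.54), Rps28 (0.47), Rps10 (0.38) and Rpl38 (0.31). The dim probe set of Rps24 named above also had the other sign (0.75). The 5 h sign also turned with the spiked-in controls for Rps27 (−0.0039), Rpl39 (−0.18) and Rps29 (−0.32), and for Rps29 with quantile normalization (−0.030) and the mean of all probe sets (−0.15). The knockout sign turned with quantile normalization for Rps29 (0.024) and Rps28 (0.012). Leaving out 1 array turned the sign in some fits of Rps27 (−0.81 to 1.47), Rpl39 (−0.45 to 0.75) and Rps29 (−0.033 to 0.054) at 5 h, and of Rps25 (−0.072 to 0.038), Rps27 (−0.43 to 0.96) and Rpl39 (−0.13 to 0.82) between the genotypes. Over all 7508 genes, 1463 were called higher and 4055 lower at 5 h at the deposited scale, 1975 and 3058 after quantile normalization, and 2614 and 2356 after median centring, which moved the median of all genes to 0.06. Of the other values for named genes under the alternatives, 562 kept direction and side of the threshold, and with the same direction 13 newly passed and 38 no longer passed. Where no value shows it, the cause was not tested. Signals near the floor limit what the dim probe sets can show.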
